A study of Mus musculus with 36 samples.

Results

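Macrophages carrying the D310N form of Tnip2 were compared with wild-type (WT) macrophages after 240 min of lipopolysaccharide (LPS), in 3 libraries of each genotype, 6 of the 36 libraries of the series. Both groups were bone marrow-derived macrophages (BMDMs) of the mouse, grown from marrow on plates to which cells do not adhere, over 7 days and with supernatant of L929 cells, a source of the growth factor M-CSF, and then given 100 ng/ml LPS. The other 30 libraries were the same genotypes at 0, 30, 60, 120 and 360 min of LPS and served for the shared estimate of spread and for comparison in time. The labels do not give the strain, sex or age of the mice, how the allele was made, or whether replicates came from separate mice or cultures, so the p-values measure the spread between these libraries only, which may be technical. The sample titles write D310N and the table's header writes D309N; the former is used here. The values were single-end RNA sequencing levels normalised by the submitters, on a log2 scale and with unknown read depth, so no counting interval or detection limit is given. A gene was tested when its log2 value was at least 3.32, or 10 on the linear scale, in 3 or more of the 36 libraries, and 11656 genes passed.

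Tnip2 encodes ABIN-2, a ubiquitin-binding adaptor that holds and stabilises the kinase Tpl2 (gene Map3k8) together with the NF-kB1 precursor p105. Tpl2 carries signals from Toll-like receptors to the ERK kinases, while A20 (gene Tnfaip3) and the related adaptors ABIN-1 and ABIN-3 restrain NF-kB signalling. By 4 h of LPS a macrophage has passed its first burst of immediate early genes and makes secondary cytokines, interferon-induced proteins, nitric oxide and itaconate, and it has turned its metabolism and cell cycle accordingly.

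The mutated codon is shown first, since the titles and the header number it differently. Of 3 coding transcripts of GENCODE release M21, 1 has aspartate at both positions (430 codons, minus strand of chromosome 5, GRCm38). There the codons named by D309N and D310N lie side by side in exon 5 of 6, at chr5:34499282-34499284 and chr5:34499279-34499281. With aspartate encoded by both, the reference cannot tell which of the numbers is meant. The reference sequence around them, 5′ to 3′ on the coding strand and with the named codon in capitals, is as follows.
Codon of D309N: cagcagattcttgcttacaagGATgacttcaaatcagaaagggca
Codon of D310N: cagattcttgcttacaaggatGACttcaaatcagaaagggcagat

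At 240 min the genes with less RNA in D310N macrophages included members of the interferon-induced, antigen presentation, ERK-dependent and cytokine lists, and those with more included members of the glycolysis, adhesion, coagulation and lipid handling lists. Of 11656 genes 1980 (17%) passed limma's test at an adjusted p under 0.05, 814 (6.98%) higher and 1166 (10%) lower in D310N. Most of these differences were small. Their median size was 0.28 on the log2 scale, 822 were under 0.25, and 33 (0.283%) were over 1, of which 11 (0.0944%) were higher and 22 (0.189%) lower. Some of the 33 were weakly expressed and fell under 1 in size with some alternatives. In these bulk libraries fewer cells of a type and less RNA per cell cannot be told apart. Counts of list members at 240 min below are to be read beside the 10% lower and 6.98% higher of all genes.

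The libraries of the genotypes lay apart. A principal component with 50.4% of the variance of the 6 libraries placed WT at -11.8, -13 and -10.9 and D310N at 14.6, 8.25 and 12.8. D310N replicate 2 lay nearest to WT on it, and it was also the D310N library nearest to WT in 1104 of the 1980 called genes (55.8%). The count of 1980 became 1190 without D310N replicate 1 and 1293 without D310N replicate 3. In 1891 of the called genes the 3 libraries of one genotype did not overlap those of the other, against 4387 of all tested genes (37.6%). The median difference of all tested genes was -0.00738.

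**Figure D1:**
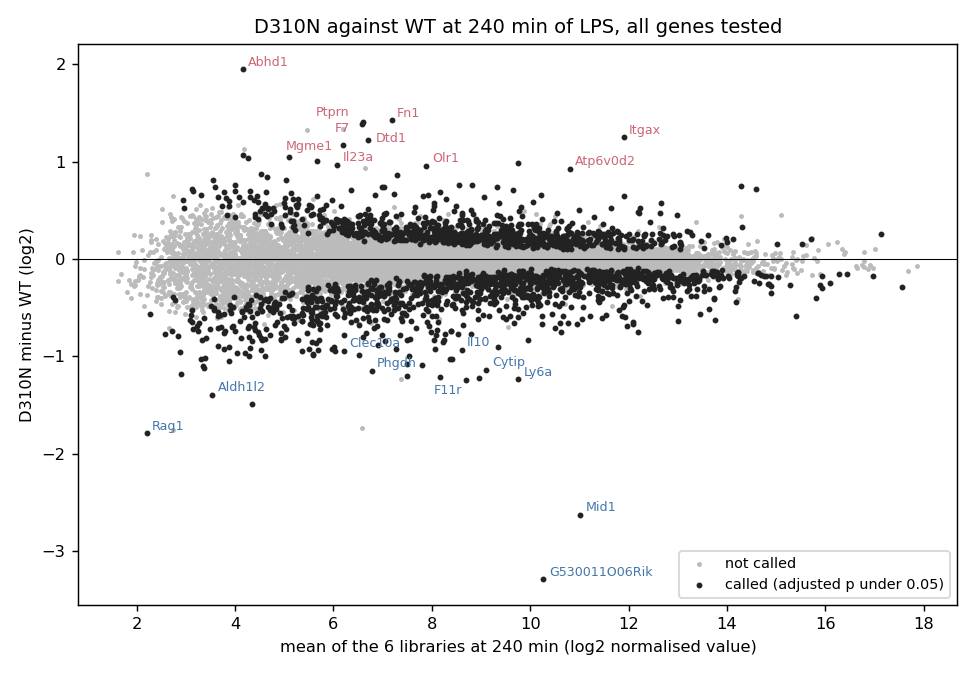
Difference of D310N from WT at 240 min of LPS (vertical axis, log2) against the mean of the 6 libraries (horizontal axis, log2 normalised value), 1 point per tested gene, black where called; gene names are red where higher and blue where lower. Mid1 and G530011O06Rik stand apart at -2.63 and -3.29, and most called genes lie within 0.5 of 0.

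Of 20 tested genes of the ABIN, A20 and Tpl2 pathway 2 were higher and 1 was lower, a share near the 17% of all genes, with a median of -0.0273. With WT replicate 1 or 3 or D310N replicate 1 or 3 left out 0 were called in limma's test, and without WT replicate 1 of 360 min 4 were lower. Tnip2 RNA itself stood at 9.11, 9.34 and 9 in WT and at 9.37, 9.34 and 9.30 in D310N (log2), so that WT replicate 2 lay among the D310N values. Its difference was 0.18 ± 0.06 (SE; adjusted p = 0.0398). This call was lost without WT replicate 1 (adjusted p = 0.139) or 3 (0.275), without D310N replicate 1 (0.132), 2 (0.0814) or 3 (0.0611), with quantile normalisation (0.0554) and in a fit of the 6 libraries alone (0.0820), in a range from 0.00213 to 0.275 over 19 alternatives. The allele is named for a change of 1 residue, so the level of the RNA does not check the genotype labels. Ikbkg, which encodes the kinase regulator NEMO, gave 0.16 ± 0.06 (adjusted p = 0.0424), and Rbck1, part of the linear ubiquitin ligase, gave -0.16 ± 0.05 (adjusted p = 0.0276). Leaving out a single library of 240 min lifted these adjusted p-values to as much as 0.272 and 0.140.

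The other main components of the complex were not called. Map3k8 gave 0.00 ± 0.05, with WT at 10.76, 10.73 and 10.69 and D310N at 10.80, 10.64 and 10.73. Nfkb1 gave -0.03 ± 0.04, Tnip1, which encodes ABIN-1, -0.03 ± 0.06, and Tnip3, which encodes ABIN-3, -0.18 ± 0.09 (adjusted p = 0.176). Tnfaip3 gave -0.13 ± 0.06 (adjusted p = 0.0978; 0.0420 to 0.428 over the alternatives). The direction of the Nfkb1 difference flips with quantile normalisation (0.02) and that of Map3k8 when WT replicate 3 (-0.02), D310N replicate 1 (-0.04) or D310N replicate 3 is left out.

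Among 17 early inflammatory cytokine genes 4 were lower and 1 was higher in D310N, beside 10% and 6.98% of all genes. The list's median was -0.233. Il10, the main anti-inflammatory cytokine of macrophages, was at 9.26, 9.13 and 8.81 in WT and at 8.14, 8.02 and 8.24 in D310N. Each D310N library lay below each WT library, and the difference was -0.93 ± 0.17 (adjusted p = 0.000278), or 0.524 of the WT level. Before LPS Il10 differed by -0.23 (adjusted p = 0.480) and at 360 min by -0.27, and the change of the difference from 0 to 240 min was not called (-0.70, adjusted p = 0.138). Il1rn, the antagonist of the interleukin-1 receptor, gave -0.56 ± 0.16 (adjusted p = 0.0124), a call lost without WT replicate 2 (0.0590) or D310N replicate 2 (0.0523). Il12b, the p40 subunit shared by interleukins 12 and 23, was at 14.14, 13.73 and 13.94 in WT and 13.47, 13.54 and 13.55 in D310N, a difference of -0.41 ± 0.10 (adjusted p = 0.00402).

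The p19 subunit of interleukin-23 went the other way. Il23a was at 5.62, 5.56 and 5.61 in WT and at 6.66, 6.19 and 6.84 in D310N, without overlap (0.97 ± 0.20, adjusted p = 0.00119). Before LPS its difference was -0.12, and the change from 0 to 240 min passed (1.09, adjusted p = 0.0391), though not when any of 11 of the 12 libraries of these times was left out (0.0537 to 0.125) or without a filter on low values (0.0543). Tnf, Il1b and Il6, the first cytokines of the response, fall outside the rule for naming genes and were looked up after the list was seen. They gave 0.00, 0.06 and -0.38 (adjusted p = 0.987, 0.629 and 0.0644). With library weights 8 cytokine genes were lower, with the 6 libraries alone 9, and without WT replicate 1 of 360 min 7.

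Of 19 chemokine genes 6 were lower and 1 was higher, beside 10% and 6.98% of all genes. Cxcl11, an interferon-induced attractant of T cells, was at 11.08, 10.95 and 10.86 in WT and at 10.42, 10.37 and 10.33 in D310N. The groups did not overlap (-0.59 ± 0.07, adjusted p = 8.38e-07), and the difference had changed from 0 to 240 min by -0.52 (adjusted p = 0.00336). Cxcl9, of the same group, gave -0.33 ± 0.06, and Ccl12, a monocyte attractant, -0.35 ± 0.08. Ccl6 was higher by 0.57 ± 0.11 (adjusted p = 0.000371), with D310N at 13.09, 12.73 and 12.98 above WT at 12.33, 12.41 and 12.35.

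Immediate early and ERK-dependent genes were lower in D310N in 6 of 27 and higher in 0 at 240 min, beside 10% and 6.98% of all genes. The list's median was -0.15. The other 21 were not called, among them Dusp6 (0.07), Spry2 (0.05), Egr1 (-0.08), Egr2 (-0.04), Fos (0.19) and Dusp1 (-0.49). These 6 uncalled genes were picked after their values were seen. Before LPS the list's median was 0.104, with 7 higher and 1 lower, beside 3.64% and 7.09% of all genes at that time. Dusp5, a phosphatase that switches off nuclear ERK, was at 7.35, 7.34 and 7.43 in WT and at 6.67, 7.13 and 6.78 in D310N. All 3 D310N values were lower (-0.52 ± 0.10, adjusted p = 0.000444), whereas at 0 min Dusp5 was higher in D310N by 0.41 (adjusted p = 0.00465). The change from 0 to 240 min was -0.93 (adjusted p = 0.000277). Myc, the growth regulator, gave -0.48 ± 0.09 at 240 min and 0.10 at 0 min, a change of -0.58 (adjusted p = 0.0178; 0.0509 to 0.0681 without D310N replicate 1 or 3 of 240 min or D310N replicate 1 of 0 min). Dusp2, another phosphatase of the family, gave -0.42 ± 0.09 and a change of -0.57 (adjusted p = 0.0133; 0.0579 without D310N replicate 3 of 0 min). The nuclear receptor gene Nr4a3 gave -0.59 ± 0.17 (adjusted p = 0.0130), a call lost without WT replicate 1 (0.0580) or D310N replicate 1 (0.0565). From 0 to 240 min 7 genes of this list changed towards lower in D310N and 0 towards higher, beside 111 (0.952%) and 116 (0.995%) of all genes. At 240 min 3 genes were lower without D310N replicate 1, 12 with library weights, 10 with the 6 libraries alone and 11 without WT replicate 1 of 360 min. The 0 higher genes became 1 when replicate 2 or 3 of WT or 1 or 3 of D310N was left out, with the 6 libraries alone or with robust empirical Bayes. They became 2 without WT replicate 1 of 360 min or with a filter at 50, and 3 with library weights.

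Members of both lists of interferon genes were lower, mostly by little. Of 43 type I interferon-stimulated genes 14 were lower and 0 higher (median -0.127), and in 32 the D310N libraries lay wholly below WT (21.6% of all genes did). Isg20, an antiviral exonuclease, was at 11.10, 11.08 and 11.09 in WT and at 10.38, 10.54 and 10.38 in D310N, the latter lower in each library (-0.66 ± 0.09, adjusted p = 7e-06). Irf7, which amplifies interferon production, gave -0.44 ± 0.11 (adjusted p = 0.00641), Bst2, which tethers budding viruses, -0.30 ± 0.07, and Dhx58, an RNA helicase of the RIG-I family, -0.27 ± 0.05. Other members lay close to 0, such as Ifit1 (0.03), Mx1 (0.04) and Ifih1 (0.00), which were picked after their values were seen. The median of the list was -0.305 at 0 min with 35 genes lower (7.09% of all genes were lower and 3.64% higher then). It was -0.417 at 120 min with 39 lower (9.72% and 7.94%) and -0.0556 at 360 min with 4 lower (9.52% and 6.8%). Against the mean of the other 5 times the difference at 240 min was less negative or more positive in 12 genes and the reverse in 0, beside 1.05% and 1.08% of all genes. The count of 14 was 5 with quantile normalisation (and 1 higher), 24 with the 6 libraries alone, 8 without WT replicate 1 or 2 or D310N replicate 1, and 9 without D310N replicate 3.

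The list of interferon-gamma type GTPases and antigen presentation genes held 16 lower and 0 higher genes of 31, with a median of -0.181. Tgtp1, a GTPase that acts on the vacuoles of intracellular parasites, was at 10.84, 10.90 and 10.82 in WT and at 10.18, 10.15 and 10.10 in D310N (-0.71 ± 0.12, adjusted p = 0.000166). The groups were separate, as in Gbp4, a guanylate-binding protein (-0.59 ± 0.10, adjusted p = 7.13e-05). Reads of Tgtp1 and of its near-identical neighbour Tgtp2 may have been divided by the counting. B2m, the light chain of class I molecules, was at 16.02, 16.03 and 16.01 in WT and at 15.73, 15.73 and 15.80 in D310N. Its difference was -0.26 ± 0.05 (adjusted p = 0.000136; -0.18 and 0.0698 with quantile normalisation). The class I heavy chain gene H2-D1 gave -0.30 ± 0.05. This list's median was -0.206 at 0 min with 18 genes lower, -0.267 at 120 min with 24 lower and -0.225 at 360 min with 15 lower. Of all genes 7.09%, 9.72% and 9.52% were lower at these times. The count of 16 was 8 with quantile normalisation and 10 without WT replicate 1, D310N replicate 1 or D310N replicate 3, and 1 gene was higher without WT replicate 1 of 360 min. In the list of SOCS and cytokine receptor genes 3 of 24 were called, all higher, a share below the 17% of all genes. They were its interferon receptor genes, Ifnar1 (0.26 ± 0.06), Ifnar2 (0.15 ± 0.04, adjusted p = 0.0594 without WT replicate 3) and Ifngr1 (0.23 ± 0.05). Without WT replicate 1 of 360 min 1 gene of that list was lower.

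Promoters were searched because members of both interferon lists were lower. Of the genes whose promoters are shown, Tlr6 is in neither list. Of 11656 tested genes 8996 had an entry in the RefSeq promoter table (GRCm38.p6), which gives 250 bases before to 50 after the start. The core of the interferon-stimulated response element, searched as GAAA, any 2 bases and GAAA on either strand, was in 3.29% of these promoters, in 6.94% of those of genes lower in D310N (62 of 893) and in 1.89% of those of genes higher (12 of 636). Outside both interferon lists it was in 5.87% of the lower genes' promoters (51 of 869). An NF-kB-like motif, GGGA, any base and TTTCC on either strand, was in 0.422% of promoters, 0.448% of the lower and 0.157% of the higher genes'. In 16 of 31 type I interferon promoters (51.6%) and in 11 of 23 of the other interferon list (47.8%) the first motif was present. Among named genes the first motif was also in Cytip, F930015N05Rik, Lamp1 and Myd88, lower in D310N, and in Dtd1, higher. Bub1b, Ldlrad3 and Ndufs3, which were not called, held it too. No match was found for Isg20, Irf7, Dhx58, Gbp4 or H2-D1, some of which may lack an entry. Examples of 4 genes lower in D310N, picked because they hold a match, follow with the motifs in capitals. Each is 5′ to 3′ on the gene's strand, and a match is a description of the letters and not evidence of binding.
Bst2 (chr8:71537423-71537722, minus strand): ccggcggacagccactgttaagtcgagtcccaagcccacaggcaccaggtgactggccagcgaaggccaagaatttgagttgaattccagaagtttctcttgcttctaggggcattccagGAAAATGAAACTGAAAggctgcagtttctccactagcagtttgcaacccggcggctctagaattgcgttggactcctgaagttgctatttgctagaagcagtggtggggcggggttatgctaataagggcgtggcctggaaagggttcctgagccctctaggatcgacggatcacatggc
Tgtp1 (chr11:48992197-48992496, minus strand): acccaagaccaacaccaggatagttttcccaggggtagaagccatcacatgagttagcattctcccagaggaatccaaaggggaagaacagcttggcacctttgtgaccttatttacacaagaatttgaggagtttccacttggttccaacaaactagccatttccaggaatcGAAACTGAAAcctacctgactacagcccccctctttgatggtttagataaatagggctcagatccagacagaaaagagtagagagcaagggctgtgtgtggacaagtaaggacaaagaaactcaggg
B2m (chr2:122147437-122147736, plus strand): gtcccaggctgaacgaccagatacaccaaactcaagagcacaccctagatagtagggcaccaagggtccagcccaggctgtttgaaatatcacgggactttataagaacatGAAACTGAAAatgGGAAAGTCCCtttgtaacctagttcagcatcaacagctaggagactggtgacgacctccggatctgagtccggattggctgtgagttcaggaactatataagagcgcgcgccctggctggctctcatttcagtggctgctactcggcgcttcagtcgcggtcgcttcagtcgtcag
Tlr6 (chr5:64959117-64959416, minus strand): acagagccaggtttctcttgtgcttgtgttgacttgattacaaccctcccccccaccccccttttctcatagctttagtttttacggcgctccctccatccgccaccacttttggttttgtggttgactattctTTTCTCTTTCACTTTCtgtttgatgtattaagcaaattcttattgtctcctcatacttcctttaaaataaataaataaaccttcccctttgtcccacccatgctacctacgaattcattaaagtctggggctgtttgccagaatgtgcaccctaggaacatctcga

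In Bst2 a pair of overlapping matches begin 130 and 124 bases before the start, and in Tlr6 a pair on the other strand begin 116 and 110 bases before it. In Tgtp1 the match begins 77 bases before the start. In B2m it begins 139 bases before the start, and the NF-kB-like motif follows it at 126 bases.

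**Figure D2:**
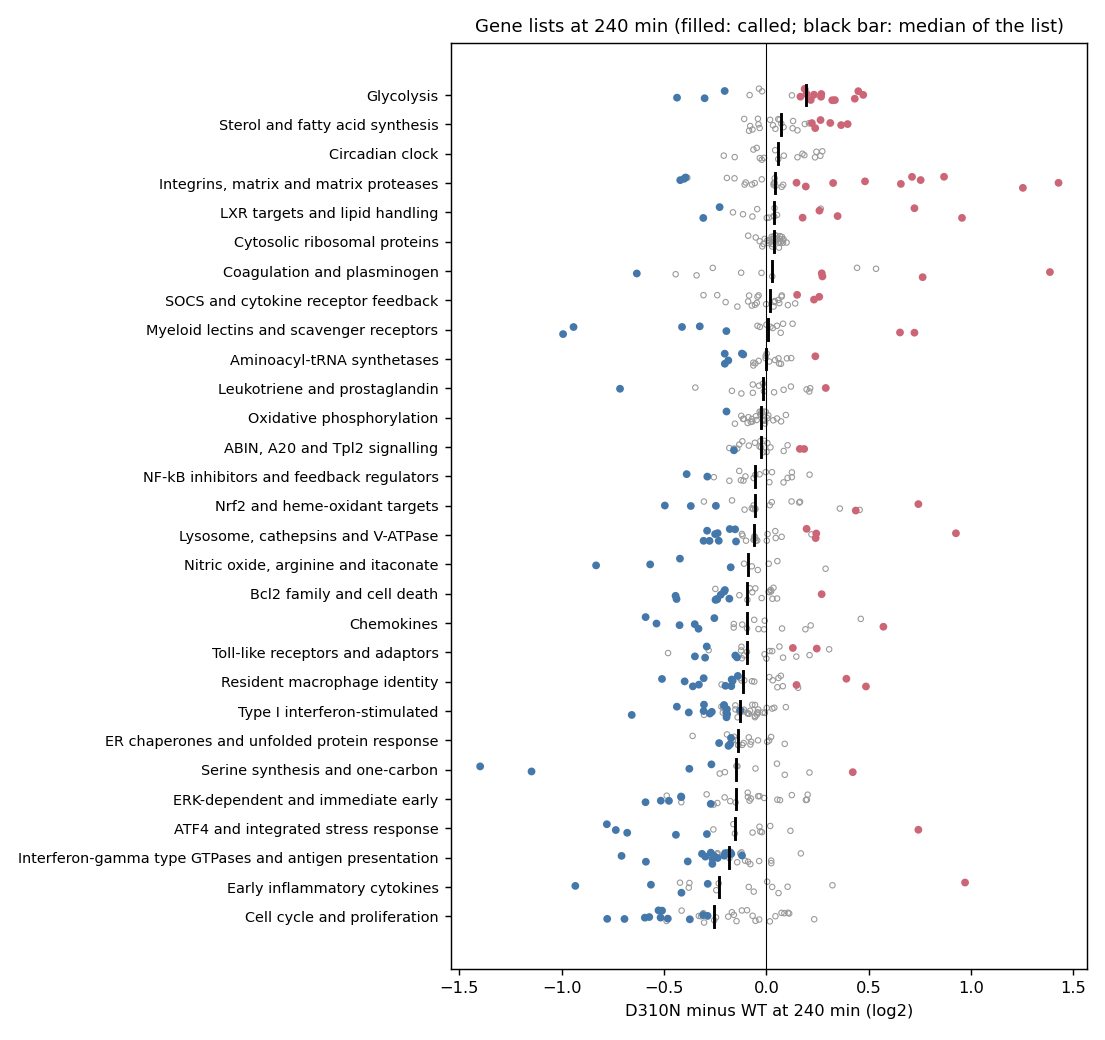
Difference of D310N from WT at 240 min (horizontal axis, log2) for each tested member of 29 gene lists (vertical axis, ordered by median), filled where called, red higher and blue lower, with a black bar at the median. The median was highest for glycolysis (0.193) and lowest for cell cycle genes (-0.255).

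Genes of Toll-like receptors and their adaptors were lower in 5 and higher in 2 of 23, beside 10% and 6.98% of all genes. Tlr3, the sensor of double-stranded RNA, was at 12.18, 12.12 and 12.13 in WT and 11.76, 11.78 and 11.84 in D310N (-0.35 ± 0.07, adjusted p = 0.000671). Tlr6, the partner of Tlr2, gave -0.29 ± 0.06 (adjusted p = 0.000542) and Tlr8, a sensor of single-stranded RNA, 0.25 ± 0.06. Their groups did not overlap. Tlr4, the LPS receptor, gave -0.09 (adjusted p = 0.336) and is named outside the rule. Of the TLR list 3 genes were lower without D310N replicate 1 and 9 with library weights, and 1 was higher without replicate 1 or 3 of WT or 1 or 3 of D310N. Of 19 NF-kB inhibitors and feedback regulators 0 were higher and 2 lower, the latter a share near the 10% of all genes. The lower genes were Traf1, an adaptor of TNF receptors (-0.39 ± 0.06, adjusted p = 1.59e-05), and Nfkbib, which encodes IkB-beta (-0.29 ± 0.06). Without WT replicate 1 of 360 min 5 were lower and 1 was higher.

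In the list of nitric oxide, arginine and itaconate genes, which also holds tryptophan enzymes, 4 of 10 were lower and 0 higher. With D310N replicate 2 or WT replicate 1 of 360 min left out 1 was higher. The lower genes were Nos2 and Irg1 and the tryptophan enzyme genes Kynu and Ido2, and the other 6 were not called. Nos2, the inducible nitric oxide synthase, was at 13.26, 13.25 and 13.24 in WT and at 12.83, 12.83 and 12.82 in D310N. D310N was lower in each library (-0.42 ± 0.07, adjusted p = 4.86e-05), and the difference was -0.07 before LPS and -0.15 at 360 min. The change from 0 to 240 min (-0.35, adjusted p = 0.0467) was lost without any 1 of the 12 libraries of these times (0.0646 to 0.117). Kynu, an enzyme of tryptophan breakdown, gave -0.83 ± 0.16 (adjusted p = 0.000623), with WT at 8.06, 7.81 and 7.89 and D310N at 7.06, 7.13 and 7.06. Ido2, of the same pathway, gave -0.57 ± 0.16 (adjusted p = 0.0162; 0.0510 to 0.115 without WT replicate 2 or D310N replicate 1 or 3). Irg1, which makes itaconate, gave -0.17 ± 0.04 (adjusted p = 0.00159; -0.04 and 0.612 with quantile normalisation).

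**Figure D3:**
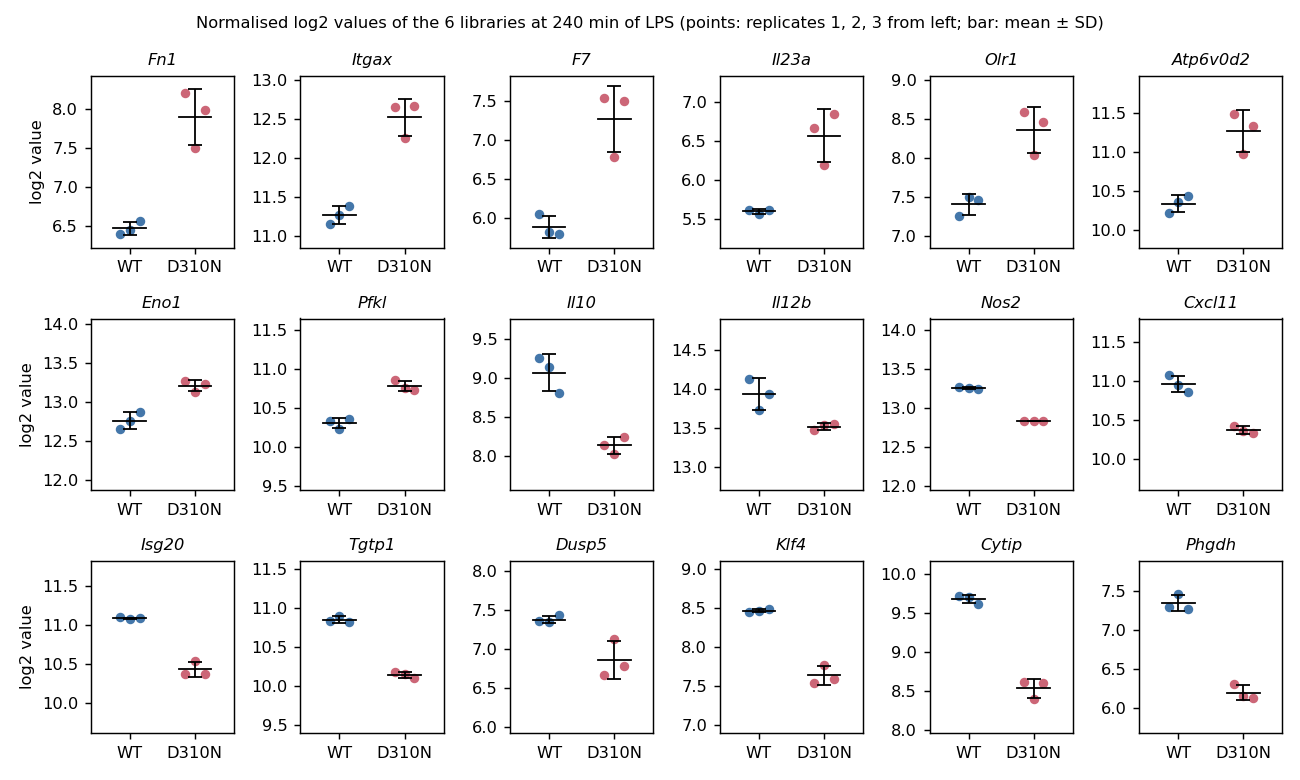
Normalised log2 values (vertical axis, a different range for each gene) of the 3 WT (blue) and 3 D310N (red) libraries at 240 min for 18 genes, with bars at the mean ± SD. In each panel the genotypes do not overlap, and D310N replicate 2, the middle red point, lies nearest to WT in Fn1, Itgax, F7, Il23a, Olr1 and Atp6v0d2.

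Adhesion, matrix and coagulation genes held several of the larger rises. Of 28 genes of integrins, matrix and matrix proteases 10 were higher and 3 lower, with a median of 0.0407. Of all genes 6.98% were higher and 10% lower, so the share of lower genes was near that of all genes. Fn1, which encodes fibronectin, was at 6.40, 6.45 and 6.56 in WT and at 8.21, 7.5 and 7.99 in D310N, 2.69 times the WT level (1.43 ± 0.16, adjusted p = 3.90e-07). Itgax, the integrin CD11c, was at 11.15, 11.27 and 11.39 in WT and at 12.65, 12.25 and 12.66 in D310N (1.25 ± 0.13, adjusted p = 9.69e-08). In both genes D310N replicate 2 was the lowest of its group and still above each WT library. Itga6, an integrin that binds laminin, gave 0.66 ± 0.07 (adjusted p = 4.79e-08), and Timp1, an inhibitor of matrix proteases, 0.87 ± 0.13 (adjusted p = 1.73e-05). Gpc1, a cell surface heparan sulfate proteoglycan outside this list, gave 0.98 ± 0.24. The count of 3 lower genes was 1 without WT replicate 1 or 2 or D310N replicate 1 and 6 without WT replicate 1 of 360 min.

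Of 13 coagulation and plasminogen genes 4 were higher and 1 lower. F7, coagulation factor VII, was at 6.05, 5.81 and 5.79 in WT and at 7.53, 6.78 and 7.5 in D310N (1.38 ± 0.26, adjusted p = 0.000346). F10, factor X, gave 0.76 ± 0.16, and Pros1, the anticoagulant protein S, 0.27 ± 0.06. In this list 3 genes were lower with library weights, with the 6 libraries alone or without WT replicate 1 of 360 min, and 2 without WT replicate 1 or D310N replicate 1 of 240 min.

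Glycolysis was the list with the largest share of higher genes among the 29: 12 of 20 were higher and 3 lower, with a median of 0.193. Eno1, an enolase, was at 12.66, 12.76 and 12.87 in WT and 13.27, 13.13 and 13.24 in D310N (0.45 ± 0.07, adjusted p = 4.40e-05). Pfkl, a phosphofructokinase, was at 10.33, 10.23 and 10.36 in WT and 10.86, 10.76 and 10.73 in D310N (0.47 ± 0.07, adjusted p = 4.89e-05). Both genes were higher in each D310N library. Pfkfb4, which controls phosphofructokinase, gave 0.33 ± 0.05 and Gpi1, the phosphoglucose isomerase, 0.32 ± 0.05. The lower members were Hk1, Aldoc and Pfkfb3, isoforms of enzymes whose other isoforms are in the list (-0.20, -0.44 and -0.30); they are named after their values were seen. Without WT replicate 1 or D310N replicate 1 or 3 the count of lower genes was 1. The list looked alike before LPS, with 11 higher, 1 lower and a median of 0.185, beside 3.64% higher and 7.09% lower of all genes. The change from 0 to 240 min was called for 1 of its genes, beside 1.95% of all genes.

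Some serine synthesis and amino acid response genes were lower. Of 13 genes of serine synthesis and one-carbon metabolism 4 were lower, 1 was higher and 8 were not called. Phgdh, the first enzyme of serine synthesis, was at 7.30, 7.47 and 7.27 in WT and at 6.31, 6.16 and 6.13 in D310N, 0.452 of the WT level (-1.15 ± 0.11, adjusted p = 2.08e-08). The later enzymes of the serine pathway, Psat1 and Psph, gave 0.09 and -0.23 (adjusted p = 0.547 and 0.103). Of the mitochondrial folate enzyme genes Mthfd2 gave -0.38 ± 0.06 and the weakly expressed Aldh1l2 -1.40 ± 0.17, while Shmt2 (-0.20, adjusted p = 0.136) and Mthfd1l (0.05, adjusted p = 0.755) were not called. The cytosolic Mthfd1 was higher by 0.42 ± 0.10. Of 15 ATF4 and integrated stress response genes 5 were lower, 1 was higher and 9 were not called, Atf4 itself among them (-0.02, adjusted p = 0.883). Psat1, Psph, Shmt2, Mthfd1l and Atf4 are named after their values were seen. Asns, asparagine synthetase, was at 8.94, 9.01 and 9 in WT and at 8.30, 8.27 and 8.34 in D310N (-0.68 ± 0.10, adjusted p = 1.69e-05). Slc7a5, a transporter of large neutral amino acids, gave -0.44 ± 0.10 and Slc7a11, the cystine transporter, 0.74 ± 0.16. Without WT replicate 2 of 240 min 3 genes of the ATF4 list were lower.

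Several lipid genes were higher. Of 25 sterol and fatty acid synthesis genes 6 were higher and 0 lower, against 0 and 0 before LPS and 11 and 0 at 360 min. Of all genes 6.98% were higher at 240 min, 3.64% before LPS and 6.8% at 360 min. Fasn, the fatty acid synthase, gave 0.31 ± 0.08 and Acaca, acetyl-CoA carboxylase, 0.26 ± 0.05. Of 18 genes of LXR targets and lipid handling 5 were higher and 2 lower, beside 6.98% and 10% of all genes. The share of lower genes was near that of all genes. Olr1, a receptor for oxidised lipoprotein, was at 7.26, 7.51 and 7.47 in WT and at 8.59, 8.04 and 8.47 in D310N (0.96 ± 0.16, adjusted p = 0.000114). It did not differ detectably before LPS (-0.02, adjusted p = 0.962), and the change was 0.98 (adjusted p = 0.0208; 0.0544 to 0.0715 without WT replicate 1 or D310N replicate 1 or 3 of 240 min or WT replicate 3 of 0 min). Cd36, a scavenger receptor, gave 0.72 ± 0.15, and Lpl, lipoprotein lipase, 0.26 ± 0.06 (adjusted p = 0.00517; 0.0919 with quantile normalisation). The list's count of higher genes was 3 without replicate 1 or 2 of WT or 1 or 3 of D310N, and that of lower genes was 1 without replicate 1 or 3 of WT or 1 or 3 of D310N and 4 without WT replicate 1 of 360 min.

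Of 29 genes of lysosomes, cathepsins and the proton pump 9 were lower and 4 higher, with 2 higher without WT replicate 1 or D310N replicate 1 or 3. Lamp1, a lysosomal membrane protein, gave -0.25 ± 0.04 and Hexa, a hexosaminidase subunit, -0.28 ± 0.05. Ctsb, cathepsin B, gave -0.29 ± 0.05 (adjusted p = 6.04e-05; -0.08 and 0.563 with quantile normalisation). Atp6v0d2, a pump subunit found in osteoclasts and macrophages, stood out at 11.49, 10.97 and 11.33 in D310N above 10.22, 10.36 and 10.44 in WT (0.93 ± 0.14, adjusted p = 3.46e-05). Of 8 osteoclast markers Atp6v0d2 and Dcstamp were higher, and Calcr and Oscar were under 10 on the linear scale in all 6 libraries. Acp5 (0.04), Ctsk (0.22), Ocstamp (0.48) and Nfatc1 (-0.11) were not called. The linear sum of the list was 2560 to 2770 in WT and 3530 to 4490 in D310N. Atp6v0d2 alone was 1190 to 1390 in WT and 2010 to 2880 in D310N, and Dcstamp 265 to 310 and 429 to 532. The part of osteoclast-like cells in these results was not tested.

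Macrophage identity genes were lower in 10 and higher in 3 of 26 (5 lower without WT replicate 2 or D310N replicate 1, 6 with quantile normalisation). Axl, a receptor for dying cells, was at 13.91, 13.89 and 13.89 in WT and at 13.41, 13.35 and 13.40 in D310N (-0.51 ± 0.05, adjusted p = 2.08e-08). Ms4a7, a membrane protein of macrophages, gave -0.33 ± 0.04, while the scavenger receptor gene Stab1 was higher by 0.49 ± 0.10. Myeloid lectins split, 5 lower and 2 higher of 16, beside 10% and 6.98% of all genes. Clec4n, the fungal receptor Dectin-2, was at 8.02, 7.90 and 8.21 in WT and at 6.90, 7.41 and 6.84 in D310N (-0.99 ± 0.17, adjusted p = 0.000106). Clec7a, the fungal receptor Dectin-1, was at 11.54, 11.61 and 11.58 in WT and at 12.42, 11.99 and 12.28 in D310N (0.65 ± 0.09, adjusted p = 1.38e-05). These related receptor genes thus lay without overlap in opposite directions, and Clec10a, a galactose lectin, gave -0.94 ± 0.13.

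The 9 defining macrophage markers were abundant in all 6 libraries, with a linear sum of 277000 to 291000 in WT and 255000 to 274000 in D310N; Cd68 (-0.20) and Lyz2 (-0.17) were lower and Itgam (0.15) higher. Of 12 neutrophil markers 9 were under 10 in all 6 libraries and the sum was 1110 to 1350 in WT and 894 to 1150 in D310N, mostly Csf3r. Of the markers in the table, 5 of 6 for B cells, 6 of 8 for T and NK cells, 3 of 3 for mast cells and 5 of 6 for erythroid cells and megakaryocytes were under 10 in all 6 libraries. The T and NK cell sum was 533 to 586 in WT and 454 to 495 in D310N, and the erythroid and megakaryocyte sum, mostly Pf4, was 1050 to 1160 and 1160 to 1350. The fibroblast sum, 2350 to 2710 in WT and 2610 to 3760 in D310N, was mostly Vcam1, which LPS induces in WT. The dendritic cell sum, 6580 to 6750 in WT and 5290 to 5570 in D310N, was mostly Bst2, one of the interferon genes above. The part of other cells in the differences was not tested.

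Cell cycle genes were lower in 11 and higher in 0 of 35, with a median of -0.255. Ccnb2, a mitotic cyclin, was at 7.34, 7.35 and 7.41 in WT and at 6.51, 6.57 and 6.70 in D310N (-0.78 ± 0.14, adjusted p = 0.000190). Birc5, survivin, gave -0.69 ± 0.13 and Cenpe, a kinetochore motor, -0.59 ± 0.09; their genotypes did not overlap either. Before LPS 27 of the 35 were lower, beside 7.09% of all genes then, and the median was -0.644. From 0 to 240 min the difference moved upward in 6 genes and downward in 0, beside 0.995% and 0.952% of all genes. Among the 6 was Ccnb1, another mitotic cyclin (-1.15 at 0 min, -0.51 ± 0.09 at 240 min, change 0.64, adjusted p = 0.00399). Bub1b, of the spindle checkpoint, went from -0.83 to 0.11 (change 0.94, adjusted p = 0.00336) and Kif20a, a mitotic kinesin, from -0.94 to -0.15 (0.79, adjusted p = 0.00314). At 240 min 19 genes were lower and 1 higher with library weights or without WT replicate 1 of 360 min, and 2 were higher with quantile normalisation. Of 25 genes of the Bcl2 family and cell death 9 were lower and 1, Bbc3, higher (0.27; 0 without replicate 1 or 3 of WT or 1 or 2 of D310N). Among the lower genes were Bcl2l11, the death inducer Bim (-0.44 ± 0.08), and Bcl2a1d, a survival factor of a near-identical gene cluster (-0.24 ± 0.04).

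Few or no genes of the ribosomal, oxidative phosphorylation and circadian clock lists were called. Of 34 cytosolic ribosomal protein genes 0 were called in limma's test, with a range from -0.0889 to 0.0987 (2 were higher with quantile normalisation or library weights), and of 30 oxidative phosphorylation genes 1, Ndufa1, was lower (-0.20; 0 without WT replicate 1 or 3 or any D310N replicate). Of 17 circadian clock genes 0 passed, and 1 was higher without D310N replicate 2 and 2 without WT replicate 1 of 360 min. Of 21 genes of ER chaperones and the unfolded protein response the median was -0.137, with 4 lower and 0 higher, led by the transcription factor gene Xbp1 (-0.23 ± 0.04, adjusted p = 0.000206). In 15 of the 21 the D310N libraries lay wholly below WT, against 21.6% of all genes, and in 0 wholly above. The count of 4 was 1 with quantile normalisation, 8 and 7 with the additive and random replicate block, 14 with library weights and 11 with the 6 libraries alone or without WT replicate 1 of 360 min.

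The largest differences of the comparison fell outside these lists in several cases. Mid1 (chromosome X, 169685199 to 170005736), a ubiquitin ligase bound to microtubules, was at 12.38, 12.45 and 12.13 in WT and at 9.67, 9.98 and 9.44 in D310N, 0.162 of the WT level (-2.63 ± 0.12, adjusted p = 7.34e-16). G530011O06Rik, annotated as a processed transcript on the opposite strand within it (169975043 to 169978917), was at 11.93, 12 and 11.81 in WT and at 8.62, 8.71 and 8.53 in D310N (-3.29 ± 0.10, adjusted p = 1.13e-21). The strand setting of the counting is not given in the sources used here, and without it reads of this antisense pair cannot be told apart. Other called falls without overlap were Ly6a, the surface protein Sca-1 (-1.24 ± 0.16), F11r, a junctional adhesion molecule (-1.24 ± 0.15), Cbr2, a carbonyl reductase (-1.21 ± 0.14), and Slc43a3, a nucleobase transporter (-1.07 ± 0.13). Among rises were Ptprn, a phosphatase-like protein of secretory granules (1.41 ± 0.20), Ppp1r1a, an inhibitor of a protein phosphatase (1.00 ± 0.19), and the neighbours Mgme1 and Dtd1 described below.

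Most of the large differences were also found before LPS. Of the 33 over 1 in size, 24 were also called in the same direction at 0 min, 19 at all 6 times and 1 at no other time. Of the 1980 called genes 565 were called in the same direction at 0 min (10.7% of all genes were called then), 613 at 30 min (12.2%), 720 at 60 min (12.9%), 961 at 120 min (17.7%) and 875 at 360 min (16.3%), and between 3 and 12 at each time in the opposite direction. No other time gave a call in the same direction for 618, and in either direction for 599, and 301 were called in the same direction at all 6 times. The times hold different libraries but share the estimate of spread.

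A direct test found 227 genes (1.95%) whose genotype difference at 240 min differed from that at 0 min, and 248 (2.13%) for which it differed from the mean of the other 5 times, 122 upward and 126 downward (150 and 102 with quantile normalisation). Of the 599 genes called at 240 min and in neither direction at another time 70 were among the 248. Without the 360 min groups the 248 became 1041, and without those of 0, 30 or 60 min 75, 75 and 90. Leaving out WT replicate 1 of 360 min, whose mean squared deviation from its group was the largest of the series, gave 627 and 586 in place of 227 and 248.

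Cytip, which restrains integrin adhesion in leukocytes, had the largest downward difference from the other times among the named genes. It was at 9.71, 9.70 and 9.62 in WT and at 8.61, 8.40 and 8.60 in D310N, 0.453 of the WT level (-1.14 ± 0.11, adjusted p = 4.27e-08). Its difference was -0.01 before LPS and -1.09 at 360 min, and 240 min differed from 0 min by -1.13 (adjusted p = 0.000155) and from the other times by -0.86 (adjusted p = 0.000303). Klf4, a transcription factor of macrophage polarisation, stood at 8.45, 8.47 and 8.48 in WT and at 7.54, 7.77 and 7.60 in D310N, a difference of -0.83 ± 0.11 and of 0.07 before LPS (change -0.90, adjusted p = 0.00169). Nfe2l2, the oxidative stress regulator Nrf2, gave -0.37 ± 0.05 at 240 min, -0.08 at 0 min and 0.08 at 360 min, and differed from the other times by -0.35 (adjusted p = 0.00144). Vash1, a tubulin carboxypeptidase, gave -1.09 ± 0.13 and a change from 0 min of -0.78 (adjusted p = 0.0257; 0.0534 to 0.0927 without WT replicate 1 or D310N replicate 1 or 3 of 240 min, WT replicate 1 or 2 of 0 min or D310N replicate 2 of 0 min).

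Upward changes included a pair of neighbours on chromosome 2. Mgme1, a nuclease of mitochondrial DNA (144270663 to 144281227), was at 5.76, 5.57 and 5.50 in WT and 6.90, 6.68 and 6.77 in D310N (1.18 ± 0.09, adjusted p = 6.52e-11). Dtd1, a tRNA deacylase (144599897 to 144768758), was at 5.85, 6.31 and 6.14 in WT and 7.27, 7.26 and 7.44 in D310N (1.22 ± 0.10, adjusted p = 9.97e-10). Their starts lie 0.329 Mb apart, both groups were separate, and the differences had been 0.38 and 0.33 before LPS, so that 240 min differed from 0 min by 0.80 and 0.89 (adjusted p = 0.000375 and 0.000669). The named differences against the other times kept their call under every alternative run for Cytip, Klf4, Nfe2l2, Mgme1, Dtd1, Bub1b, Kif20a, Bcl2a1d and G530011O06Rik, 9 of 31, and the change from 0 min for 15 of 31.

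**Figure D4:**
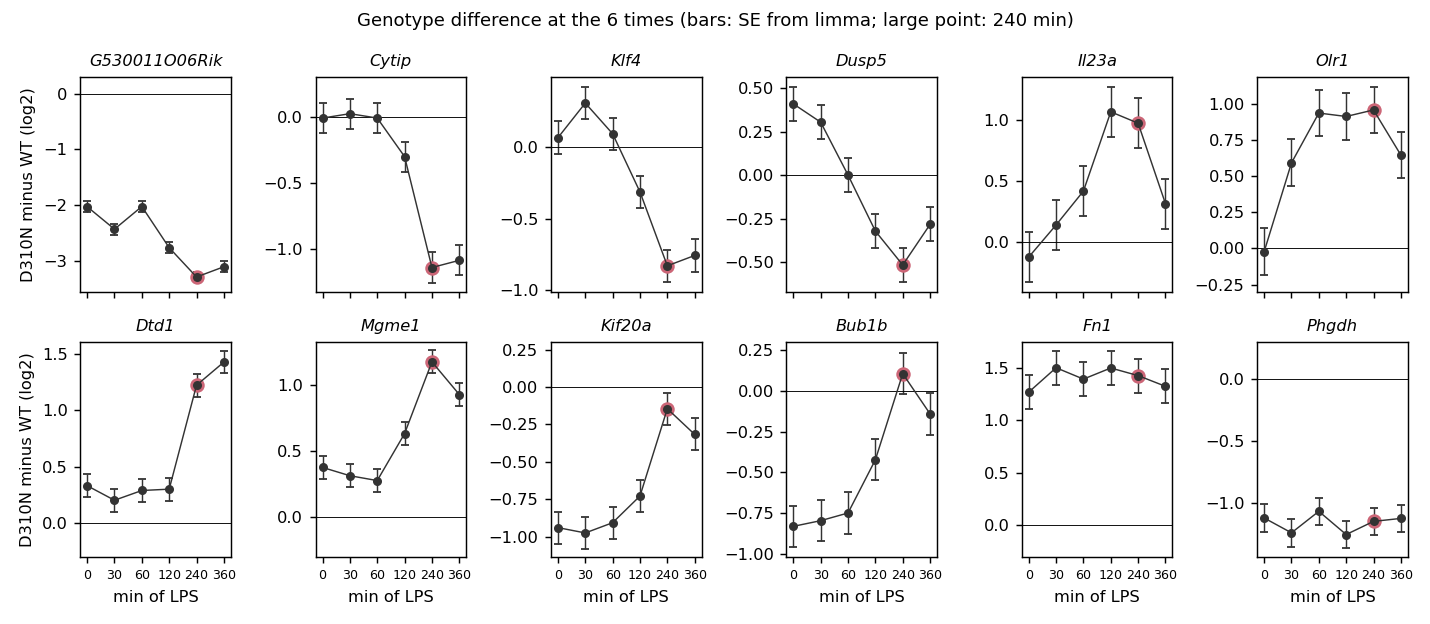
Difference of D310N from WT (vertical axis, log2, a different range for each gene; bars, SE from limma) at the 6 times of LPS (horizontal axis, min, evenly spaced) for 12 genes, with 240 min enlarged. Cytip and Klf4 fall from about 0 before LPS to -1.14 and -0.83, Mgme1 and Dtd1 rise to 1.18 and 1.22, and Fn1 and Phgdh stay near the same value throughout.

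Genes near Tnip2 on chromosome 5 were examined because the groups differ by an allele there; the labels do not describe the strain background. Of 92 tested genes that start within 5 Mb of Tnip2, itself among them, 23 (25%) were called, 12 higher and 11 lower, against 17% of all genes. Several of these calls were lost under some of 19 alternatives, as for Tnip2 and Maea (7 each), Nop14 and Zfp518b (6 each), and Rnf4 and Wdr1 (5 each). Atraid, Rbks, Whsc1 and Zfp512 lost theirs under 4 each, Khk under 2, and Man2b2 and Rgs12 under 1. The others kept theirs. Abhd1, a hydrolase (chromosome 5, 30950066 to 30955091), was weakly expressed at 3.13, 3.17 and 3.25 in WT and 4.98, 5.21 and 5.2 in D310N. Its difference was 1.95 ± 0.14 (adjusted p = 6.52e-11) in limma's test. All 3 WT values lay under the testing floor of 3.32, so the size and p-value of this difference are uncertain. Over the alternatives the size ranged from 1.33 to 2.18. Abhd1 is counted among the 12 higher genes here and the 11 rises over 1 of all tested genes. Ept1, an enzyme of phospholipid synthesis, gave 0.50 ± 0.07, Cenpa, a centromere histone, -0.64 ± 0.12, and Tacc3, a spindle protein, -0.42 ± 0.07. Starting 0.0776 Mb from Tnip2, Add1, a cytoskeletal adducin, gave 0.20 ± 0.04, and Rnf4, a SUMO-directed ubiquitin ligase on its other side, gave -0.10 ± 0.03. With quantile normalisation Rnf4 was at -0.05 and not called in limma's test (adjusted p = 0.341). Chromosomes 2 and 1 held the most differences over 1 in size, 6 of 933 and 6 of 671 tested genes. Chromosomes 11 and X held 3 of 979 and 3 of 375, beside 0.283% of all tested genes. The order is by count and not by share. On chromosome 2 the weakly expressed Rag1 (-1.79 ± 0.29) and Slc1a2 (-1.49 ± 0.18) start 1.02 Mb apart.

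**Figure D5:**
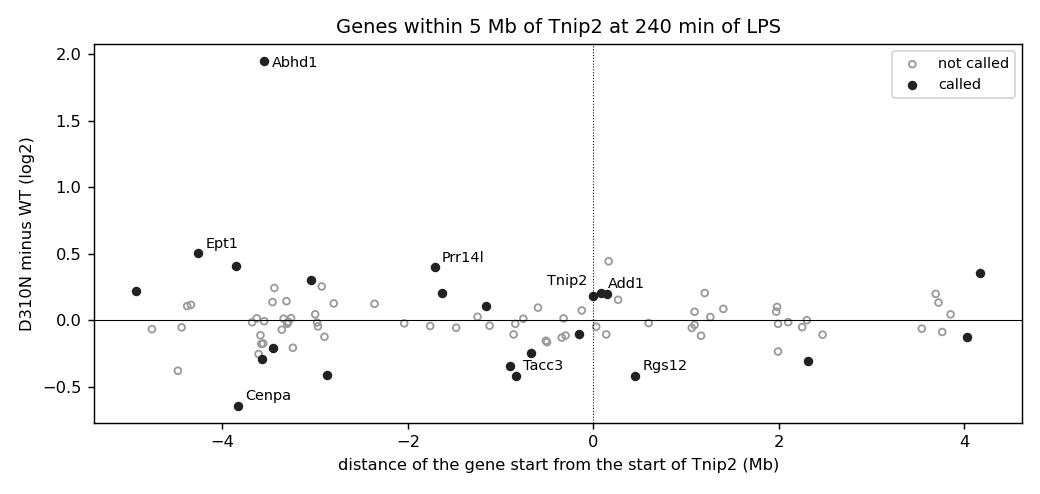
Difference of D310N from WT at 240 min (vertical axis, log2) against the distance of the gene's start from that of Tnip2 (horizontal axis, Mb) for 92 tested genes on chromosome 5, filled where called. Abhd1, whose WT values lie under the testing floor, stands apart at 1.95, and the other 22 called genes lie between -0.64 and 0.50.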

How the data were processed

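For 36 libraries of single-end 75 bp RNA sequencing reads the submitters' processing notes name STAR 2.5.2a, RSEM 1.2.31, DESeq2 1.10.1 and the build mm10. The authors deposited 1 table of normalised values on a log2 scale; the log2 transformation, annotation and strand setting are not given in the sources used here. No raw counts were used and the depth is unknown, so weakly expressed genes cannot be weighted by their reads. Of 16439 rows 23 were left out because their names had turned into dates, and 11656 genes at or above 3.32 in at least 3 libraries were tested. limma 3.58.1 (R 4.3.3) fitted 1 mean for each of the 12 groups (24 residual degrees of freedom), with an intensity trend and Benjamini-Hochberg adjustment over all tested genes, called at 0.05. Contrasts were D310N minus WT at 240 min, and that difference against 0 min and against the mean of the other 5 times.

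Members and gene lists were chosen with earlier results of these data known. Named genes were the 6 main pathway genes, the 12 largest rises and 12 largest falls without overlap and at 50 or more on the linear scale, the 6 largest in each direction against the other times, up to 4 members per list by smallest p, and called genes within 5 Mb of Tnip2. A few genes that meet this rule are not reported here. List members absent from the table or under the floor were not tested. Positions came from GENCODE M21 by symbol for 11572 genes (99.3%), and promoters from RefSeq for 8996.

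On simulated data for the 240 min comparison (11656 genes) genes were shifted in sets of 50 by a log2 difference of 0.25, 0.5, 1 or 2; the fit called 36%, 78%, 98% and 100% of them and, wrongly, 2 of 11456 others. Same-numbered libraries of the genotypes did not deviate together at 240 min (correlations -0.0197, 0.0778 and 0.00872), so replicate numbers were not used as pairs. Alternatives were other pseudocounts, filters and normalisations, library weights, robust variance estimates, replicate blocks, the 6 libraries alone, and each library or time left out.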

Additional observations from a re-analysis of the deposited data

Results flagged for a closer look

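The differences listed here are those whose genotype difference at 240 min was itself found by limma to differ from that at another time. Against 0 min this held for 227 genes and against the mean of the other 5 times for 248, at an adjusted p under 0.05. Values are the change of the D310N minus WT difference on the log2 scale, and no explanation was tested.

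Among the named genes the difference moved downward from 0 to 240 min for G530011O06Rik (-1.26), Cytip (-1.13), Dusp5 (-0.93), 2010300C02Rik (-0.92), Klf4 (-0.90), B430306N03Rik (-0.89), Mid1 (-0.78) and Vash1 (-0.78). Smaller downward moves were those of Myc (-0.58), Dusp2 (-0.57), Cxcl11 (-0.52), Fam53a (-0.40), Bcl2a1d (-0.36), Nos2 (-0.35), Stat3 (-0.28), Nfe2l2 (-0.28) and Axl (-0.26).

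Upward moves from 0 to 240 min were those of Il23a (1.09), Olr1 (0.98), Bub1b (0.94), Dtd1 (0.89), Mgme1 (0.80), Kif20a (0.79), Ldlrad3 (0.79), Sorbs3 (0.79) and Ccnb1 (0.64). Stard4 (0.48), Depdc5 (0.40) and Ifnar2 (0.22) moved upward by less.

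Against the other 5 times and not against 0 min, Gm5148 (-0.77), F930015N05Rik (-0.77), Glrp1 (-0.73), Kynu (-0.71) and Rnf4 (-0.13) were called downward and Add1 (0.16) upward.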

How the results depend on the processing

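Of the 149 named genes called at 240 min, 116 kept their call under every alternative run and 33 lost it under at least 1; 17 others gained one under at least 1. Over all named results 4367 values kept direction and side of the threshold, 408 lost and 46 gained a call, and 5 changed sign: Nfkb1 with quantile normalisation (0.02), Gm5148 without WT replicate 3 of 240 min (0.01; -0.12 to 0.01 over single libraries left out), and Map3k8 without WT replicate 3 (-0.02) or D310N replicate 1 (-0.04) or 3 (0.00; -0.04 to 0.05 over single libraries left out). With library weights the counts of 1980, 227 and 248 genes became 3548, 1370 and 961. Against the other times the count was 75 without the 0 min groups, 75 without 30 min, 90 without 60 min and 1041 without 360 min. Leaving out 1 library gave 1190 (without D310N replicate 1 of 240 min) to 2803 (without WT replicate 1 of 360 min) at 240 min. It gave 92 (without D310N replicate 1 of 0 min) to 627 against 0 min and 81 (without D310N replicate 1 of 240 min) to 586 against the other times, the highest both without WT replicate 1 of 360 min. With quantile normalisation 837 genes were higher and 843 lower at 240 min. The samples of the genotypes share only a number: the additive replicate block gave 2131, 260 and 282 genes and the random replicate block 2050, 322 and 342. The cause of these shifts was not tested. Read depth is unknown and limits the weakly expressed genes in a way that could not be measured.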
